A study of Mus musculus with 16 samples.

Results

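This account covers the loss of Tex10 in MI spermatocytes, that is the 2 Tex10-deficient and 2 wild-type libraries whose titles name MI spermatocytes, 4 of the 16 libraries of the series. The cells came from testes of male C57BL/6J mice aged 8 weeks, and total RNA was made into polyA-enriched bulk libraries. The Tex10-deficient mice carried the genotype Tex10f/-; Stra8iCre, that is, 1 conditional and 1 null allele of the gene, plus a recombinase whose promoter is switched on in spermatogonia, so that deletion precedes the MI stage. The labels call the controls WT and list neither a floxed allele nor a Cre for them, so the recombinase and the heterozygous null allele go with the loss of Tex10 and cannot be told apart from it. The other 12 libraries hold spermatogonia, MII spermatocytes and spermatids of both genotypes, 2 per group. The sources used here give neither the sorting of the cells nor whether libraries came from separate animals or from pools, so p-values measure the spread between libraries, which may be technical. In bulk samples, fewer cells of a type and less RNA per cell cannot be told apart.

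TEX10 belongs to the rixosome, a nuclear complex that takes part in maturation of the large ribosomal subunit and, in yeast and human cells, in silencing of heterochromatin through RNA degradation. Spermatocytes carry a silencing process of their own. The X and Y chromosomes, which find no full partner in male meiosis, are packed into the sex body and transcriptionally shut down in pachytene, a state that is partly kept in spermatids while a set of X-linked spermatid genes is switched back on.

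Levels are FPKM, fragments scaled to transcript length and to the mapped total. Changes, Tex10-deficient minus wild type, were estimated with limma in 1 fit over all 16 libraries, on the scale of log2(FPKM + 1), and genes count as called below 0.05 after Benjamini-Hochberg adjustment over all 13099 tested. This scale understates changes of genes with low levels. Read numbers are unknown, so no counting error is given. The 4 MI libraries each held between 10618 and 11306 genes at 1 FPKM or more. Their replicates correlated across genes with a Spearman rho of 0.939 in Tex10-deficient and 0.959 in wild-type cells, a description over genes, which are not independent. Both Tex10-deficient MI libraries carry another cell type in the cell type field than in the title. Across the series 6 of 8 Tex10-deficient libraries have this conflict, and all 8 correlated best with wild-type cells of the type that their title gives. Ldhc, the lactate dehydrogenase of germ cells, stood at 1922 and 930.5 FPKM in the Tex10-deficient MI libraries and 1100 and 872 in the wild-type ones. Sycp3, a core protein of the synaptonemal complex, stood at 163.4 and 169.1 FPKM in Tex10-deficient and 372.4 and 240.0 in wild-type MI libraries. Both genes were thus abundant in all 4 libraries, with Sycp3 lower in both Tex10-deficient libraries than in both wild-type ones.

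Tex10 itself (XLOC_015051, chromosome 4, 48430858 to 48473459, minus strand, mm10) stood at 10.9 and 14.6 FPKM in Tex10-deficient MI spermatocytes and at 63.1 and 57.5 FPKM in wild-type MI spermatocytes. It stood at 13.6 and 19.0 FPKM in Tex10-deficient and 55.4 and 50.0 in wild-type spermatogonia, at 8.11 and 7.29 against 13.8 and 27.4 in MII spermatocytes, and at 31.8 and 34.8 against 98.8 and 116 in spermatids. The genotypes did not overlap in any cell type, and in MI spermatocytes the Tex10-deficient mean was 21.1% of the wild-type mean. The log2 change was -2.17 (SE 0.31, limma adjusted p = 0.012). The deleted part is not named in the labels, so reads from remaining exons may contribute. The other rixosome members were not called. Senp3, the SUMO protease of the complex, stood at 20.6 and 14.2 FPKM in Tex10-deficient and 13.5 and 15.0 in wild-type cells. Pelp1, its scaffold, stood at 14.3 and 6.59 FPKM in Tex10-deficient and 9.57 and 11.6 in wild-type cells. Their groups overlapped, as did those of Wdr18, Las1l and Mdn1. Nol9, the kinase that acts with the nuclease Las1l, held 11.9 and 11.2 FPKM in Tex10-deficient and 10.02 and 8.04 in wild-type cells, which did not overlap but differed by a log2 of 0.33 (SE 0.26, limma adjusted p = 1). Among 35 nucleolar ribosome biogenesis genes 0 were called and the median log2 change was 0.07, and among 82 cytosolic ribosomal protein genes 0 were called with a median of 0.02, against a median of -0.003 over all genes tested.

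In MI spermatocytes 22 genes were called (0.168%), 7 higher (0.0534% of the genes tested) and 15 lower (0.115%). Of the 7 rises 4 are X-linked and 3 autosomal, while all 15 falls are autosomal. In all 22 genes both Tex10-deficient MI libraries lay beyond both wild-type MI libraries. This is no separate support, since the genes were called on these same libraries. The calls rest on all 4 MI libraries: 11 genes were called without wild-type MI replicate 1, 0 without wild-type MI replicate 2, and 1 without either Tex10-deficient MI replicate, and 14 without either wild-type spermatid library. The wild-type MII replicates differed widely from each other (Spearman rho 0.881), and without the 4 MII libraries the same model called 67 genes, with all 22 among them. Quantile normalization called 43 genes, 18 of them higher.

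**Figure D1:**
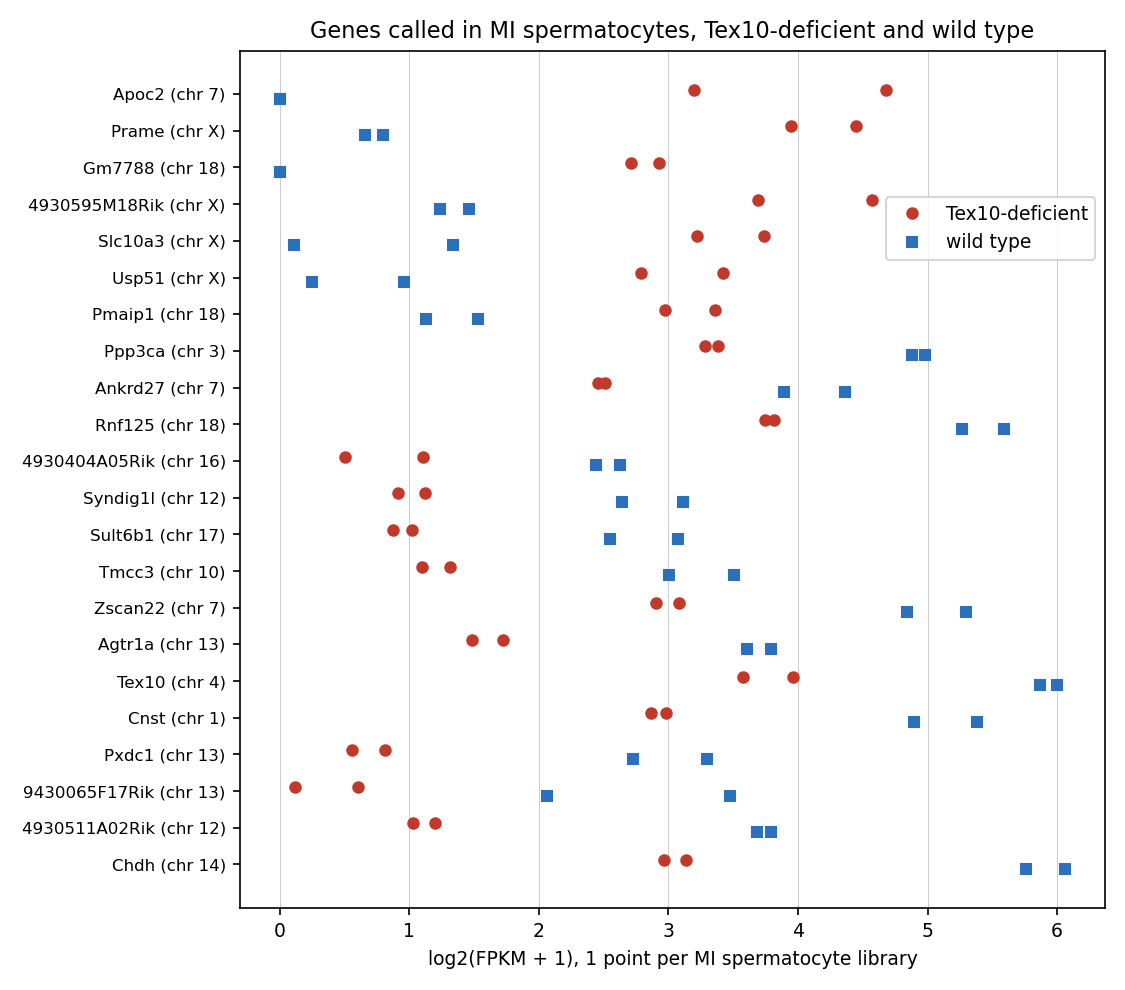
Level of the 22 called genes in each MI spermatocyte library, as log2(FPKM + 1), with Tex10-deficient libraries as red circles and wild-type libraries as blue squares, 1 point per library. The genes were called on these same libraries. Circles and squares do not overlap for any gene, and for Apoc2 and Gm7788 both wild-type libraries lie at 0.

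The 4 X-linked rises were of genes under 2 FPKM in both wild-type MI libraries. Prame (XLOC_023923, chromosome X, 135613002 to 135627705), a leucine-rich repeat protein whose human relative is a cancer-testis antigen, stood at 14.4 and 20.8 FPKM in Tex10-deficient MI spermatocytes and at 0.581 and 0.735 in wild-type ones. Its log2 change of 3.47 (SE 0.39, limma adjusted p = 0.0051) was the second largest rise called. In spermatids Prame held 31.4 and 32.0 FPKM in Tex10-deficient and 19.2 and 16.4 in wild-type libraries, and at most 0.155 FPKM in any spermatogonia library. The values of Tex10-deficient MI spermatocytes thus overlapped those of wild-type spermatids.

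Usp51 (XLOC_023475, chromosome X, 153006469 to 153009416), a deubiquitinase that acts on histone H2A in human cells, stood at 5.91 and 9.70 FPKM in Tex10-deficient MI spermatocytes and at 0.95 and 0.19 in wild-type ones (log2 change 2.50, SE 0.37, limma adjusted p = 0.014). The 4 spermatid libraries held between 2.38 and 4.12 FPKM, so both Tex10-deficient MI libraries lay above all 14 other libraries of the series. Slc10a3 (XLOC_023783, chromosome X, 74369217 to 74373349), a solute carrier that shares its annotated locus with Ubl4a on the same strand, held 12.3 and 8.33 FPKM in Tex10-deficient and 1.53 and 0.0813 in wild-type MI spermatocytes (log2 change 2.75, SE 0.41, limma adjusted p = 0.014). Wild-type spermatogonia held 4.88 and 3.34 FPKM of it and wild-type spermatids 7.69 and 7.01, so wild-type MI spermatocytes were the low point among wild-type groups. The uncharacterised 4930595M18Rik (XLOC_023809, chromosome X, 81419575 to 81458121) held 11.9 and 22.8 FPKM in Tex10-deficient and 1.75 and 1.36 in wild-type MI spermatocytes (log2 change 2.78, SE 0.42, limma adjusted p = 0.014), with 27.4 and 48.1 FPKM in wild-type spermatids.

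The 250 bases upstream of the transcription start are shown for 3 of these X-linked genes and for Cnst, the fall with the smallest p. Slc10a3 is left out because the promoter set used has no entry for it. The sequences are from RefSeq (GRCm38.p6) and read 5′ to 3′ on the strand of the gene. The start used for Cnst lies downstream of the one in GENCODE, so that 159 of its 250 bases fall inside the GENCODE span of the gene. Capitals mark matches on either strand to TATAAA (the TATA box), to CCAAT (the CCAAT box), to GGGCGG (the GC box) and to TGACG (the core of the cAMP response element), with no overlap between different motifs. Windows lie at chrX:135627706-135627955 (minus strand), chrX:153006219-153006468 (plus), chrX:81458123-81458372 (minus) and chr1:179546279-179546528 (plus).
Prame: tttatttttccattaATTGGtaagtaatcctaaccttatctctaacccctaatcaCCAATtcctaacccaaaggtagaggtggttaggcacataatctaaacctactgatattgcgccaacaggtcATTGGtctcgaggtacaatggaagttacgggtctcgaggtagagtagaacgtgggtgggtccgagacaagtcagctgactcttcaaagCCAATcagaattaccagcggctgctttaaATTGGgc
Usp51: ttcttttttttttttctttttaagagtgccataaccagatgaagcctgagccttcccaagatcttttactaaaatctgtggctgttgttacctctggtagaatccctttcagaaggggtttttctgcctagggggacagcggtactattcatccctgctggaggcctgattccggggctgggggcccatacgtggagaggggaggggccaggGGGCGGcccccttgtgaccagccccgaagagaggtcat
4930595M18Rik: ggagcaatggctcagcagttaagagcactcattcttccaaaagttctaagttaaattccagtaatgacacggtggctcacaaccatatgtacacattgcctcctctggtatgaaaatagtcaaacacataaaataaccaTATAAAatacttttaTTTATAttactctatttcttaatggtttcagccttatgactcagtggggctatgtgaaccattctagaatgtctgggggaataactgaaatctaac
Cnst: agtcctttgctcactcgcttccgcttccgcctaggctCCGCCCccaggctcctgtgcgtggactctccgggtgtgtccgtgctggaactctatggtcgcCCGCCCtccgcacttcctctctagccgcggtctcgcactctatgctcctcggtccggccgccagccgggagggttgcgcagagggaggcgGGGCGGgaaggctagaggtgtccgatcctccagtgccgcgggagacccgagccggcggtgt
The Prame window held 5 CCAAT matches, the 4930595M18Rik window 2 TATA matches, the Usp51 window 1 GC box match and the Cnst window 3, and none held TGACG. Over the 9999 genes tested that have such a window, 36.6% held CCAAT, 6.6% TATAAA, 56% GGGCGG and 26.8% TGACG. GC content was 44%, 52.8%, 36.4% and 69.2% for Prame, Usp51, 4930595M18Rik and Cnst, against a median of 59.2% over the same 9999 genes. A match describes the letters only.

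To count beyond the few calls, a gene is said to stand apart when both Tex10-deficient MI libraries lie on the same side of both wild-type MI libraries and the log2 difference is at least 1. By this rule of size, with no test, 194 genes stood apart higher (1.48% of all genes tested) and 245 lower (1.87%). Of 503 X-linked genes tested 61 stood apart higher (12.1%) and 0 lower, while of 12558 autosomal genes 127 stood apart higher (1.01%) and 244 lower. No autosome had more than 1.73% of its genes higher (chromosome 5). The median log2 change was 0.25 over X-linked genes and -0.01 over autosomal genes, and 386 of 503 X-linked genes had a positive change (76.7%), against 48.5% of autosomal genes. At an unadjusted p under 0.05 in limma, 72 X-linked genes were higher and 0 lower, against 214 and 472 autosomal genes. Over all 13099 genes tested 292 were higher and 473 lower at this threshold.

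**Figure D2:**
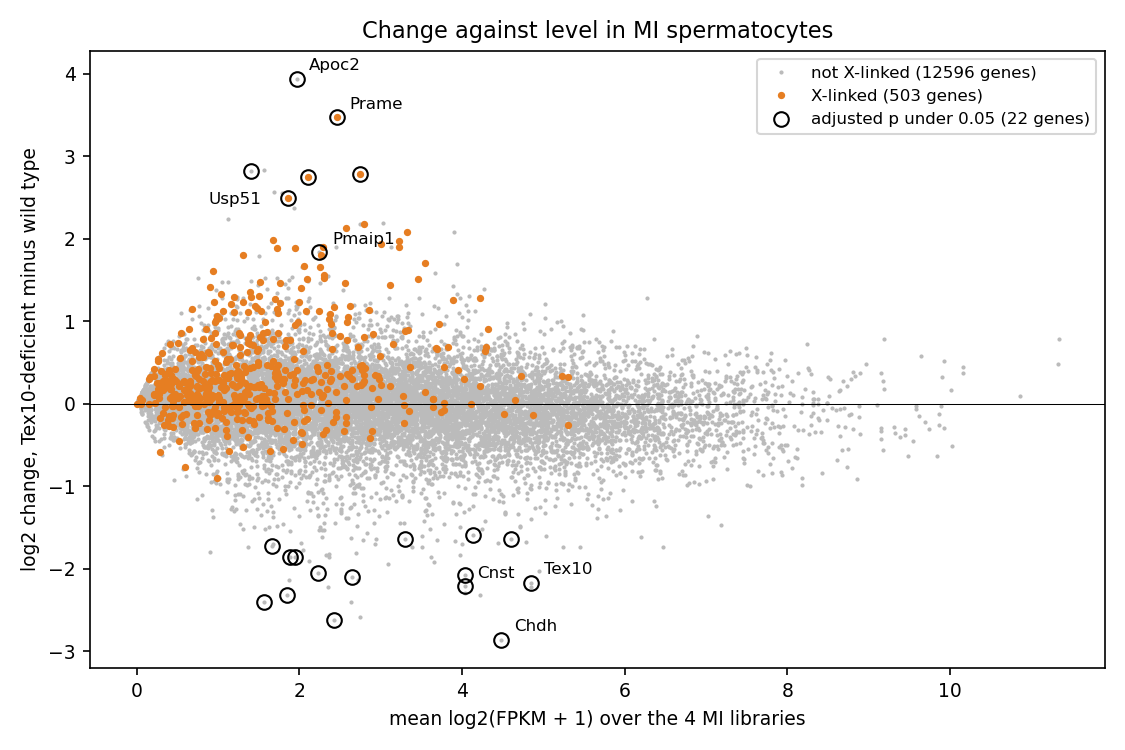
Log2 change in MI spermatocytes, Tex10-deficient minus wild type, against the mean log2(FPKM + 1) over the 4 MI libraries, 1 point per gene. X-linked genes are orange, all others grey, and the 22 called genes are ringed. X-linked points lie mostly at low levels and above 0, with a median of 0.25.

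**Figure D3:**
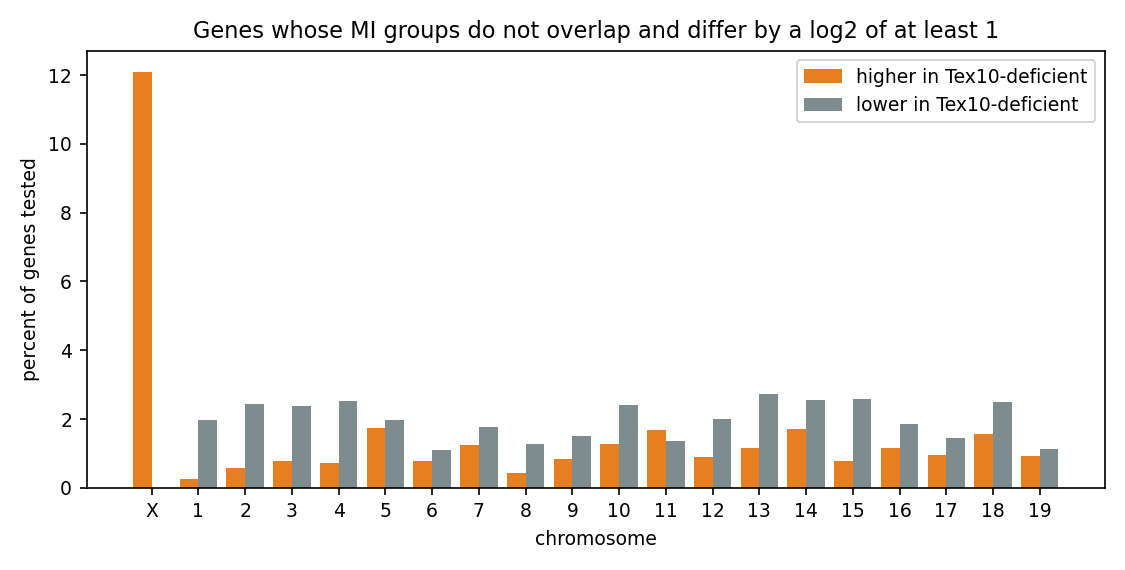
Percent of the genes tested on chromosome X and on each autosome that stood apart higher (orange) or lower (grey) in Tex10-deficient MI spermatocytes, by non-overlapping libraries and a log2 difference of at least 1. Chromosome X has 12.1% higher and 0% lower, and no autosome exceeds 1.73% higher.

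The size of this X-linked difference varied with single libraries, and the total X-linked output overlapped. X-linked genes made up 0.55% and 0.912% of all FPKM in the Tex10-deficient MI libraries and 0.593% and 0.333% in the wild-type ones, with replicate 2 high in the first group and low in the second. Likewise 317 and 389 of the 503 X-linked genes reached 1 FPKM in Tex10-deficient and 328 and 252 in wild-type MI libraries. Without Tex10-deficient replicate 2, 61 X-linked genes stood apart higher and 8 lower, beside 431 autosomal genes higher (3.43%), and the X-linked median was 0.08. Without wild-type replicate 2, 50 stood apart higher and 4 lower, beside 153 autosomal genes higher (1.22%), with a median of 0.07. The rule is easier to meet for any gene with 1 library on a side. Without wild-type replicate 1 the X-linked counts were 86 higher and 2 lower, beside 312 autosomal genes higher (2.48%), with a median of 0.45. Without Tex10-deficient replicate 1 they were 85 and 1, beside 266 autosomal genes higher (2.12%), with a median of 0.44. For a single value such as this median, an exact permutation test of 2 libraries against 2 cannot go below a two-sided p of 0.333, so none is given.

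Most of the 61 X-linked genes, 38, were at least 4-fold higher in wild-type spermatids than in wild-type spermatogonia. Their median level was 5.75 and 6.20 FPKM in the Tex10-deficient MI libraries and 1.37 and 0.998 in the wild-type ones, and it was 16.3 and 19.4 FPKM in wild-type spermatids and 0.301 and 0.949 in wild-type spermatogonia. Wild-type spermatids lay above both Tex10-deficient MI libraries for 45 of the 61, and 11 of the 61 were higher in both Tex10-deficient MI libraries than in both wild-type spermatid libraries. The same 2 counts were 193 and 223 over all 503 X-linked genes tested. They were 68 and 42 over the 127 autosomal genes that stood apart higher. Among genes at least 4-fold higher in wild-type spermatids than in wild-type spermatogonia (ratio of FPKM + 1, a split chosen after the values were seen), 38 of 113 X-linked genes stood apart higher (33.6%, median log2 change 0.77), against 68 of 3055 autosomal genes (2.23%, median -0.03). Among genes within 4-fold between these cell types, 21 of 228 X-linked genes (9.21%) and 48 of 7511 autosomal genes (0.639%) did so, and of genes at least 4-fold higher in spermatogonia 2 of 162 X-linked and 11 of 1992 autosomal ones.

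**Figure D4:**
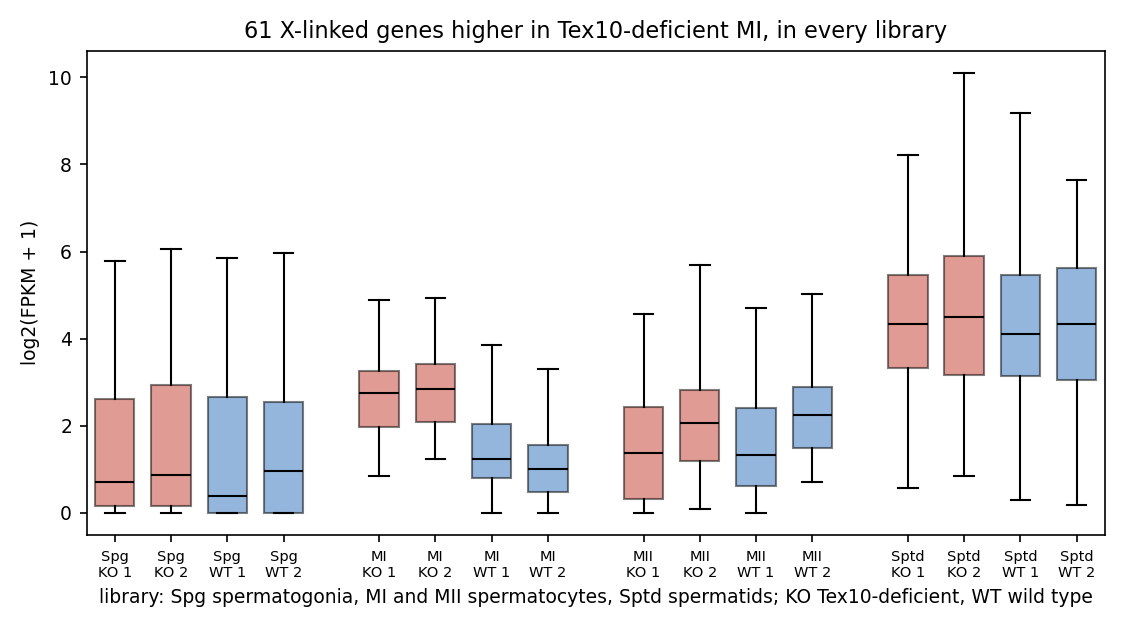
Levels of the 61 X-linked genes that stood apart higher in Tex10-deficient MI spermatocytes, as log2(FPKM + 1), in each of the 16 libraries. Boxes span the quartiles with the median as a line, whiskers the lowest and highest gene, red boxes are Tex10-deficient and blue boxes wild type. The genes were chosen on the 4 MI libraries, and their median is 5.75 and 6.20 FPKM in Tex10-deficient against 1.37 and 0.998 FPKM in wild-type MI libraries.

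The 18 elongating spermatid markers summed to 1654 and 1533 FPKM in the Tex10-deficient and 1102 and 1201 in the wild-type MI libraries, with a median log2 change of 0.41, 15 of 18 positive (49.6% of all genes), 4 standing apart higher (1.48% of all genes) and 0 called. Smcp, a protein of the capsule around sperm mitochondria, held 118.4 and 120.3 FPKM in Tex10-deficient and 52.1 and 44.9 in wild-type cells. Odf1, of the outer dense fibres, held 17.1 and 31.4 FPKM in Tex10-deficient and 14.0 and 5.26 in wild-type cells, and Hils1, a spermatid linker histone, 19.6 and 27.8 against 12.2 and 5.21. The 21 round spermatid markers summed to 1300 and 960.7 FPKM in Tex10-deficient and 1158 and 1335 in wild-type MI libraries, which overlap, and 0 of them stood apart. The part of spermatid RNA in the X-linked difference was not tested, and the autosomal counts in the same class of spermatid genes are those given above. Prm1, the protamine of late spermatids, stood at 5.91 and 7.71 FPKM in Tex10-deficient and 11.2 and 2.76 in wild-type MI libraries, beside 1592 and 1717 in wild-type spermatids.

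The same count was made in the other cell types. In spermatogonia 8 X-linked genes stood apart higher and 5 lower (all genes 2.35% and 1.4%), in MII spermatocytes 8 and 6 (1.33% and 7.14%), and in spermatids 3 and 1 (0.725% and 0.428%). Over all X-linked genes tested the median log2 change was 0.00 in spermatogonia, 0.14 in MII spermatocytes and 0.19 in spermatids. The autosomal medians were -0.01, -0.02 and -0.03 in that order. The difference between cell types was tested gene by gene, as the MI change minus the mean change in the other 3 cell types. In limma 0 genes passed, with 499 at an unadjusted p under 0.05 and adjusted p = 0.080 for the smallest, shared by Prame, Usp51, Gm7788, Pxdc1, Chdh and Cnst. Against spermatogonia alone 3 genes (0.0229%) passed, the falls Cnst, Pxdc1 and Rnf125. For the mean of the other cell types, without the MII libraries, 1 gene passed, Prame, with a difference of 2.99 on the log2 scale (SE 0.35).

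**Figure D5:**
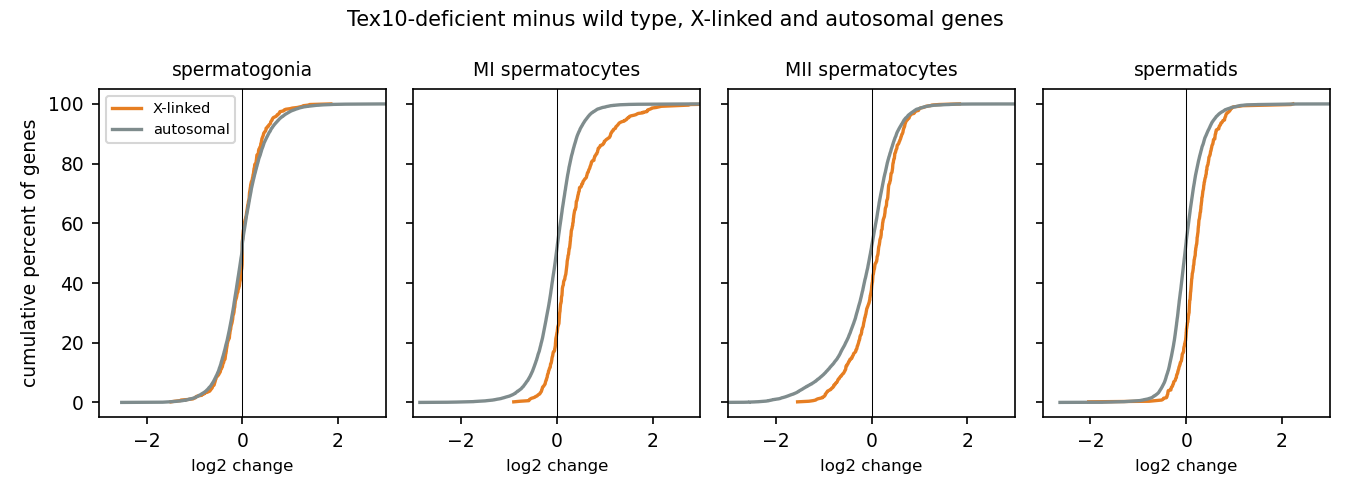
Cumulative percent of X-linked (orange, 503 genes) and autosomal (grey, 12558 genes) genes by log2 change, Tex10-deficient minus wild type, in the 4 cell types. The axis is cut at changes of 3 in either direction. In MI spermatocytes the X-linked curve lies to the right of the autosomal one, with medians of 0.25 and -0.01. In spermatids the medians are 0.19 and -0.03.

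Further X-linked genes appeared in the fit without the MII libraries, which called 67 genes (0.518%), 25 higher (0.193%) and 42 lower (0.325%). Of the 25 rises 14 are X-linked, 10 autosomal and 1 without an assigned chromosome, and of the 42 falls 0 are X-linked. No autosomal rise called only in that fit met the rule for naming. The rule asks for at least 5 FPKM, groups that do not overlap and no predicted name. Ribc1, which encodes a protein of axonemal microtubules, held 16.9 and 22.6 FPKM in Tex10-deficient and 4.37 and 3.42 in wild-type MI spermatocytes (log2 change 2.08, SE 0.27, limma adjusted p = 0.0081 in that fit and 0.0064 to 1 over all alternatives). Fam46d, a noncanonical poly(A) polymerase gene, held 10.4 and 18.1 FPKM in Tex10-deficient and 3.10 and 1.59 in wild-type cells. Prps1, a housekeeping enzyme of nucleotide synthesis, held 5.29 and 7.21 FPKM in Tex10-deficient and 1.54 and 1.53 in wild-type cells. The last gene is not confined to spermatids, since it stood at 15.2 and 15.3 FPKM in Tex10-deficient and 13.7 and 17.4 in wild-type spermatogonia. The other named rises of that fit were also X-linked, and included Tsga8, a spermatid nuclear protein gene, at 17.2 and 7.56 FPKM in Tex10-deficient and 1.22 and 2.68 in wild-type cells, and Mum1l1 at 11.4 and 15.3 against 5.39 and 3.3. Fam122c, Ppp1r2-ps9 and Tcp11x2 completed them, and Tcp11x2 and the pseudogene Ppp1r2-ps9 have close copies with which reads may be shared.

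Of the 8 Y-linked genes tested, 7 had a positive change (49.6% of all genes) and 4 stood apart higher (1.48% of all genes), with a median log2 change of 0.83, and 0 were called. Zfy1, a zinc finger gene with a role in meiotic divisions, stood at 8.06 and 9.22 FPKM in Tex10-deficient and 3.82 and 2.67 in wild-type MI spermatocytes (log2 change 1.19, SE 0.35, limma adjusted p = 0.38). Its paralog Zfy2 held 6.21 and 11.7 FPKM in Tex10-deficient and 4.48 and 2.93 in wild-type cells, and Usp9y 5.36 and 7.77 against 3.34 and 1.84. Without wild-type MI replicate 2, 0 of the 8 stood apart. Reads of Zfy1 and Zfy2 may be shared between them.

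Of 15 genes of the machinery that silences the sex chromosomes, among them the kinase gene Atr, Mdc1 and Hormad1, 0 were called, 0 stood apart and the median log2 change was -0.06. Their summed level was 1081 and 969 FPKM in Tex10-deficient and 1073 and 980.6 in wild-type MI libraries. Scml2, a germ cell Polycomb protein of this list that is itself X-linked, stood at 25.2 and 27.3 FPKM in Tex10-deficient and 16.7 and 11.1 in wild-type cells (log2 change 0.90, SE 0.44, limma adjusted p = 0.89). Of 20 Polycomb and heterochromatin genes 0 were called and 1 stood apart, the X-linked histone methyltransferase gene Suv39h1 at 8.47 and 5.11 FPKM in Tex10-deficient and 3.36 and 1.93 in wild-type cells (limma adjusted p = 0.60). Of 15 genes of the nuclear exosome and Xrn2 0 were called and 12 were positive (49.6% of all genes), with a median of 0.30. Their sums overlapped, at 309.1 and 253 FPKM in Tex10-deficient and 256.5 and 244.4 in wild-type MI libraries. The 9 autosomal retrogenes that stand in for X-linked housekeeping genes in meiosis, such as Pgk2, had a median of -0.41 (from -0.61 to 0.18 over the 29 alternatives, a change of sign) with 0 called, and the 29 X-linked housekeeping genes a median of 0.28 with 24 positive, 1 standing apart (Phf6) and 0 called.

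The 3 autosomal rises were Apoc2, Pmaip1 and Gm7788. Apoc2 (XLOC_019506, chromosome 7, 19671579 to 19677941), the cofactor of lipoprotein lipase, stood at 24.7 and 8.15 FPKM in Tex10-deficient MI spermatocytes and was listed at 0 in both wild-type ones (limma adjusted p = 0.0051). It was also listed at 0 in the other 6 wild-type libraries, and spermatogonia and spermatids of Tex10-deficient mice held between 3.83 and 7.47 FPKM, while Tex10-deficient MII spermatocytes held 0 and 2.06. A fold against 0 is not given. Its neighbour Apoe held 13.1 and 9.42 FPKM in Tex10-deficient and 8.67 and 2.67 in wild-type MI spermatocytes and was not called (limma adjusted p = 1). Of 7 tested genes around Apoc2 6 had a positive change (49.6% of all genes) and 0 were called (median 0.23). Gm7788 (chromosome 18), a predicted gene, held 5.56 and 6.61 FPKM in Tex10-deficient MI spermatocytes and was listed at 0 in wild-type MI spermatocytes, and spermatids held 5.54 and 14.9 FPKM in Tex10-deficient and 5.89 and 3.56 in wild-type libraries.

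Pmaip1 (XLOC_009922, chromosome 18), a pro-apoptotic protein of the Bcl2 family also known as a p53 target, stood at 9.25 and 6.84 FPKM in Tex10-deficient MI spermatocytes and 1.90 and 1.19 in wild-type ones (log2 change 1.83, SE 0.30, limma adjusted p = 0.028). None of the 12 libraries outside MI spermatocytes exceeded 3.84 FPKM. Of 13 Bcl2 family genes 1 was called and the median log2 change was -0.12, and of 16 p53 targets 1 was called with a median of -0.05. Zmat3, a p53 target that encodes a zinc finger RNA-binding protein, stood apart lower at 4.199 and 4.43 FPKM in Tex10-deficient and 7.59 and 15.3 in wild-type cells (limma adjusted p = 0.45). Mdm2, the p53 target that restrains p53, held 257.9 and 289.6 FPKM in Tex10-deficient and 169.7 and 246.0 in wild-type cells, which did not overlap, and was not called. The groups of Cdkn1a, a cell cycle inhibitor, overlapped, at 1.71 and 7.48 FPKM in Tex10-deficient and 11.4 and 2.54 in wild-type cells. Of 20 DNA damage checkpoint genes 0 were called (median -0.08).

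Among the falls Cnst and Chdh had the smallest p. Chdh (XLOC_006103, chromosome 14, 30009023 to 30040527), the mitochondrial enzyme that oxidises choline towards betaine, fell to 7.77 and 6.83 FPKM in Tex10-deficient MI spermatocytes, against 53.3 and 65.9 in wild-type ones (log2 change -2.86, SE 0.37, limma adjusted p = 0.0051). Its highest wild-type level was in MI spermatocytes, with 15.8 and 14.3 FPKM in wild-type spermatids. Of 11 choline metabolism genes Chdh alone was called, and the median was 0.09. Cnst (XLOC_000598, chromosome 1, 179546370 to 179627478), a trans-Golgi protein that sorts connexins, fell to 6.91 and 6.31 FPKM in Tex10-deficient cells, against 28.7 and 40.6 in wild-type ones (log2 change -2.21, SE 0.28, limma adjusted p = 0.0051).

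Agtr1a (chromosome 13, 30336441 to 30382867), a receptor of angiotensin II, fell to 2.30 and 1.80 FPKM in Tex10-deficient cells, against 12.9 and 11.2 in wild-type cells, and was the only one of 7 angiotensin pathway genes called. Ppp3ca (chromosome 3, 136670124 to 136937727), a catalytic subunit of the phosphatase calcineurin, fell to 9.45 and 8.73 FPKM, against 28.4 and 30.5 in wild-type cells, and was the only one of 13 calcineurin genes called (median 0.10). Zscan22, a zinc finger gene, fell to 6.49 and 7.48 FPKM, against 27.6 and 38.4 in wild-type cells. Rnf125, a ubiquitin ligase, fell to 13.1 and 12.4 FPKM, against 37.6 and 47.2 in wild-type cells. Ankrd27, an endosomal trafficking protein, fell to 4.50 and 4.69 FPKM, against 13.8 and 19.6 in wild-type cells. The limma adjusted p of these 5 genes lay between 0.014 and 0.035.

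The remaining falls were of genes with low levels. Pxdc1, Tmcc3, Syndig1l and the sulfotransferase gene Sult6b1 held between 0.475 and 1.49 FPKM in Tex10-deficient and between 4.86 and 10.4 in wild-type MI spermatocytes. The long noncoding RNAs 4930511A02Rik and 4930404A05Rik held 1.30 and 1.04 FPKM and 1.15 and 0.421 FPKM in Tex10-deficient cells, against 12.9 and 11.8 and 5.19 and 4.43 in wild-type cells. The antisense RNA 9430065F17Rik held 0.517 and 0.0861 FPKM in Tex10-deficient and 3.17 and 10.1 in wild-type cells. It overlaps Zfp748 on the opposite strand, which held 5.21 and 7.81 FPKM in Tex10-deficient and 25.5 and 48.4 in wild-type cells and was called only without the MII libraries. The sources used here do not say whether counting used strand, so reads of the pair cannot be told apart, nor can those of Pxdc1 and its antisense gene Gm15908. The loci of Tex10 and Invs, Chdh and Cacna1d, Tsga8 and Dmd, and Tomm20l and Timm9 also overlap on opposite strands, and that of Apoc2 overlaps Gm44805 on the same strand.

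Of the 21 called genes other than Tex10, 0 were called in spermatogonia, MII spermatocytes or spermatids, where 865, 1738 and 284 genes had an unadjusted p under 0.05 and limma called 2, 1 and 0. Tex10, the deleted gene, was not called there either (limma adjusted p = 0.10, 0.095 and 0.23). The lack of calls thus does not show that a change is confined to MI spermatocytes. The sign of the estimate was as in MI spermatocytes for 10, 16 and 19 of the 21 genes in that order. No sign was counted for a gene at 0 in all libraries of a cell type (Gm7788 in spermatogonia and MII spermatocytes, 4930404A05Rik in spermatogonia). No share over all genes tested is given beside these counts, so they do not by themselves show a shared effect. In spermatids the median log2 change of the 14 falls was -0.55 and that of the 7 rises 0.32, and Zscan22 held 16.6 and 12.9 FPKM in Tex10-deficient and 32.4 and 41.1 in wild-type spermatids.

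Further falls were called only without the MII libraries. Hspb7, a small heat shock protein, held 6.85 and 7.93 FPKM in Tex10-deficient and 38.7 and 42.8 in wild-type MI spermatocytes (log2 change -2.31, SE 0.32, limma adjusted p = 0.011 in that fit and 0.0094 to 1 over all alternatives). Nkapl, a germ cell regulator needed for male meiosis in mice, held 39.6 and 57.4 FPKM in Tex10-deficient and 140.5 and 185 in wild-type cells. Prkag2, a regulatory subunit of the energy sensor AMPK, held 36.5 and 29.9 FPKM in Tex10-deficient and 79.4 and 93.9 in wild-type cells. Emx2, a homeobox gene of urogenital development, held 2.34 and 1.21 FPKM in Tex10-deficient and 10.1 and 17.6 in wild-type cells, and Bcl11a, a transcriptional repressor, 1.95 and 1.58 against 6.85 and 8.16. Epsti1, Zfp354b, Tomm20l and Dhrs4 were the other named falls, with means of 0.757 to 7.65 FPKM in Tex10-deficient and 6.88 to 28.7 in wild-type cells.

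Of 27 meiotic prophase markers 0 were called and 1, Syce3 of the synaptonemal complex, stood apart lower at 2.98 and 1.22 FPKM in Tex10-deficient and 6.48 and 5.17 in wild-type cells (list median -0.10). Of 20 late spermatocyte and division markers 0 were called, 4 were positive (49.6% of all genes) and the median was -0.39. Plk1, a kinase of the meiotic divisions, stood apart lower at 32.5 and 29.8 FPKM in Tex10-deficient and 67.5 and 67.8 in wild-type cells (limma adjusted p = 0.76). The most abundant members of the same list did not follow this direction. Hspa2, a chaperone of spermatocytes, held 1384 and 688.2 FPKM in Tex10-deficient and 645.3 and 658.5 in wild-type cells. Lists of 20 piRNA pathway and 23 sperm flagellum genes had medians of -0.13 and -0.09, with 0 called and 0 standing apart.

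Of 13 NF-kB targets (median 0.10), 7 Wnt targets (median -0.03), 8 interferon response genes (median -0.20) and 14 immediate early and stress genes (median -0.08), 0 were called and 0 stood apart. Leydig cell markers summed to 25.5 and 72.2 FPKM in Tex10-deficient and 30.6 and 22.7 in wild-type MI libraries, 8 markers with a median of 0.46 (from -0.19 to 1.2 over the alternatives, a change of sign), and Insl3, their hormone, held 12.6 and 25.6 FPKM against 10.6 and 5.09. Immune markers summed to 14.3 and 9.65 FPKM in Tex10-deficient and 8.15 and 6.47 in wild-type libraries. Of these 15 markers 13 were positive (49.6% of all genes) with a median of 0.19, and 7 were under 1 FPKM in all 4. Sertoli cell markers summed to 19.9 and 34.3 FPKM against 32.0 and 27.8, myoid and endothelial markers to 17.99 and 22.5 against 20.8 and 12.8, and spermatogonia markers to 246.3 and 147.1 against 203.2 and 167.5. Their part in the differences between genotypes was not tested.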

How the data were processed

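Bulk polyA RNA-seq of 16 libraries, 4 cell types by 2 genotypes with 2 libraries each, was analysed from a deposited table of FPKM values for 13101 genes, to which the authors had added 1, as the values show. Per the submitters' processing notes, FastQC 0.10.1, Trim Galore 0.6.3 with cutadapt, STAR 2.7.6a, Cufflinks 2.2.1 and the mm10 build were used. The sources used here do not give the strand setting, the annotation or read numbers. The added 1 was subtracted, 1 gene with a nonnumeric cell was left out, and genes with at least 1 FPKM in 2 libraries were tested (13099). Gene symbols were matched to GENCODE M21 for 12572 genes, and 498 more had a chromosome from RefSeq. Groups were taken from titles.

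Log2(FPKM + 1) was fitted with limma 3.58.1 (R 4.3.3), 8 group means over 16 libraries, with a mean-variance trend and Benjamini-Hochberg adjustment. The procedure was run on simulated data with the same independent spread for every gene. That setting differs from these data, so the run checks the code only. Differences between cell types were contrasts of the same fit. The genes named were Tex10, every called gene and genes called in the tests between cell types. Genes called only without the MII libraries were named up to 10 per direction by smallest p. They needed at least 5 FPKM in the higher group, no overlapping groups and no predicted name. Each list gave up to 4 genes standing apart, and each cell type marker list up to 3 abundant markers. Some further list members and Y-linked genes were named after their values were seen. The comparison, the 31 gene lists and the tests were chosen with earlier results of these data known. The 29 alternatives covered pseudocounts, filters, scalings, variance models, replicate blocks, the libraries fitted and leaving out each library.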

Additional observations from a re-analysis of the deposited data

Results flagged for a closer look

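For 3 genes (0.0229% of those tested) the change in MI spermatocytes differed from the change in spermatogonia in a limma test of the difference itself, each with adjusted p = 0.048. The difference, MI change minus spermatogonia change, was -2.62 on the log2 scale for Cnst, -3.32 for Pxdc1 and -2.76 for Rnf125. Cnst held 5.39 and 7.25 FPKM in Tex10-deficient and 4.33 and 4.56 in wild-type spermatogonia. Pxdc1 held 3.22 and 2.04 FPKM in Tex10-deficient and 1.15 and 0.493 in wild-type spermatogonia, and Rnf125 held 9.54 and 9.91 against 4.89 and 3.19. All 3 genes thus stood higher in the Tex10-deficient spermatogonia libraries and lower in the Tex10-deficient MI libraries than in wild type. Without the MII libraries 2 genes passed this test, Prame and Rnf125. The same test against MII spermatocytes and against spermatids passed 0 genes in limma, with 943 and 242 at an unadjusted p under 0.05.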

How the results depend on the processing

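Across 29 alternatives the 21 called genes other than Tex10 passed the threshold in 452 of 608 values. Their direction was the same in all 608. Most alternatives could not change it, since the MI groups of these genes do not overlap. The 22 calls became 3 with a pseudocount of 0.1, 43 with a pseudocount of 5 or quantile normalization, 52 with array weights, 67 without the MII libraries and 6 with only the 4 MI libraries, and leaving out 1 library gave 0 to 47. Same-numbered MI libraries of the genotypes deviated with a correlation of 0.004, so the numbers are not taken to pair the genotypes. Across cell types same-numbered libraries correlated at -0.08 to 0.42 within Tex10-deficient and 0.14 to 0.36 within wild-type mice, while the fit treats all 16 as independent. A replicate block called 32 genes when shared by genotypes and 39 within genotype, with 0 in the test of MI against the other cell types under either. The Tex10 change was -2.17 with limma adjusted p = 0.055 in the 4 MI libraries alone, and lay between -2.36 and -1.98 when 1 library was left out. The 439 genes standing apart became 956 and 121 with pseudocounts of 0.1 and 5, and 466 to 991 without 1 MI library. At a pseudocount of 0.1, 104 X-linked genes (20.7%) and 397 autosomal genes (3.16%) stood apart higher. At a pseudocount of 5 they numbered 14 (2.78%) and 19 (0.151%). These X-linked counts were added to the alternatives after seeing the data. Genes passing the test of MI against the mean of the other cell types numbered 1 with a pseudocount of 0.1, 5 with a pseudocount of 5, 7 with quantile normalization, 1 with array weights, 1 without the MII libraries, and 0 to 3 without 1 library. The X-linked median stayed between 0.07 and 0.45, the elongating spermatid median between 0.30 and 0.93 and the late spermatocyte median between -0.42 and -0.27, while the X-linked housekeeping median ranged from -0.04 to 0.53. Medians of 20 of 31 lists changed sign under some alternative. The cause of these shifts was not tested. With 2 libraries a side and unknown depth, differences of low genes are the least certain.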

Other observations

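Rpl29, a ribosomal protein gene and the only one of 82 to stand apart in MI spermatocytes, separated the wild-type replicates in every cell type. It held 33.4 and 26.7 FPKM in Tex10-deficient and 20.6 and 1.45 in wild-type MI libraries. The other wild-type replicate 2 libraries held 0.806 FPKM in spermatogonia, 0.409 in MII spermatocytes and 3.37 in spermatids, and no other library of the series held less than 20.6 FPKM.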
